A study of Mus musculus with 20 samples.

Results

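Enteroendocrine cells are the scattered hormone-making cells of the gut lining, and this report follows 10 of their genes in mouse colon: Chga, Chgb, Gcg, Pyy, Sst, Tph1, Insl5, Neurod1, Cck and Nts. They were chosen by name, as known hormones and markers of these cells, out of 32991 genes with a value. The value of a gene is the sum of the FPKM (fragments scaled for transcript length and for library depth) of its Ensembl transcripts in 1 library. The study took colon tissue from 20 male C57BL/6 mice in 4 groups of 5 after 91 days, with 1 library for each mouse. The Control mice received water by gavage and neither chemical, and the PZH mice received Pien Tze Huang, a traditional Chinese medicine formula, at 250 mg/kg each day. The AOM/DSS mice received 12.5 mg/kg azoxymethane, a colon carcinogen, and from 7 days later repeated courses of 2% dextran sodium sulfate in the drinking water for 5 days at a time, which injures the colon lining. The PZH + AOM/DSS mice received all 3 agents. The AOM/DSS model gives tumours in an inflamed colon, so each library mixes tumour and other tissue of the colon wall in unknown shares. In such bulk tissue, fewer enteroendocrine cells and less RNA per cell cannot be told apart.

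As background, enteroendocrine cells arise from the same crypt stem cells as the other cells of the lining, through the transcription factor Neurog3 and then Neurod1. They store peptides in dense-core granules with chromogranins and release them toward nerves, neighbours and blood when they sense nutrients or microbial products. In the colon the main kinds are L cells, which make the glucagon-like peptides from Gcg together with peptide YY and Insl5, enterochromaffin cells, which make serotonin with the enzyme encoded by Tph1, and D cells, which make somatostatin. Cells that make cholecystokinin or neurotensin are more typical of the small intestine.

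The stretches below come from upstream of 3 of these genes and are shown because levels of Chga and Chgb followed each other most closely across mice and Sst fell in AOM/DSS. The upstream sequence of each RefSeq start (GRCm38.p6, the build of mm10) was searched over 250 bases on both strands for TGACGTCA, the cyclic AMP response element known from somatostatin, for its variant TGACGTAA, for the E-box CAGATG and for the TATA-like word TATAAA. TGACGTAA was added after the Chga sequence was seen. All 10 genes matched, with 13 starts. TGACGTCA was in the window of Sst and of Chgb, against 1.55% of all 32851 windows. TGACGTAA was in that of Chga, as its choice had fixed, and in 0.447% of all windows, a share that therefore carries no weight. Capitals mark these words, and each stretch reads 5′ to 3′ on the strand of its gene.
Sst: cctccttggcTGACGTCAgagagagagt
Chgb: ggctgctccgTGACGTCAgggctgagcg
Chga: ggcggtcctaTGACGTAAtttcctgggt
The Sst stretch lies at chr16:23890875-23890902 on the minus strand, with its word 48 to 41 bases before the start. The Chgb stretch lies at chr2:132781560-132781587 on the plus strand, with its word 72 to 65 bases before the start. The Chga stretch lies at chr12:102554887-102554914 on the plus strand, with its word 44 to 37 bases before the start. GENCODE M21 sets the Sst and Chgb starts further upstream than RefSeq, so that these 2 stretches are inside its gene models and the Chga stretch is outside.

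Gcg is shown over its whole window, which lies outside the GENCODE gene, because its precursor gives the hormones that name the L cell and its window held CAGATG, the E-box that factors of the Neurod1 class can bind, at 2 places. CAGATG was in 14.4% of all windows and in those of Gcg, Insl5 and Cck here.
Gcg: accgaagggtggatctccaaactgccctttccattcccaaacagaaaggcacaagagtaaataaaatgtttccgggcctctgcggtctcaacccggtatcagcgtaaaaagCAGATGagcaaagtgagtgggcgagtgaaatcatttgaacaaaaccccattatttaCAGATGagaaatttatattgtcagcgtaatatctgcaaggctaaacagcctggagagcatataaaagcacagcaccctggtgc
Capitals mark CAGATG, 139 to 134 and 83 to 78 bases before the start at chr2:62483654-62483903 on the minus strand. TATAAA, on either strand, was in 12.4% of all windows and in those of Gcg and Insl5. A match is a description of the letters and not a measured binding site.

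In GENCODE M21 (GRCm38) all 10 are protein-coding genes. The granin genes lie at chr12:102554969-102565028 (Chga, plus strand) and chr2:132781278-132795079 (Chgb, plus strand), and the others are on minus strands. The L-cell genes lie at chr2:62474530-62483650 (Gcg), chr11:102106676-102107832 (Pyy) and chr4:103017872-103026842 (Insl5). Sst lies at chr16:23889573-23890958, Tph1 at chr7:46644641-46672537, Neurod1 at chr2:79452521-79456751, Cck at chr9:121489824-121495694 and Nts at chr10:102481756-102490486. The FPKM of Chgb, Insl5, Neurod1, Nts and Sst came from 1 transcript each, and in the others the leading transcript held from 61.2% (Tph1) to 96.6% (Chga) of the gene's mean FPKM.

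The depth of the libraries, read from the smallest step of the values, was 15.3 to 19.4 M fragments (M, mega). The colon marker genes Vil1 and Hoxb13 were high in every mouse: Vil1, of the epithelial brush border, was at 157 to 274 FPKM and Hoxb13, of the distal colon, at 58.7 to 202 FPKM. Krt8, a keratin of simple epithelium, was not. It was at 2795 FPKM in PZH 53 and at most 0.195 FPKM in the other PZH mice. Some libraries, 3 of the 20, stood apart and are marked by open circles in the plots. Control mice 17 and 50 held Krt5, a keratin of squamous epithelium, at 33.9 and 20.9 FPKM, whereas the other Control mice were at 0 to 0.0936 FPKM. PZH + AOM/DSS mouse 35 held it at 3.21 FPKM, against at most 0.104 FPKM in the other 4 mice of its group. The 8 squamous genes together ran from 4.49 to 417 FPKM in Control, 3.43 to 5.98 in PZH, 29.5 to 58.3 in AOM/DSS and 12.7 to 78.8 in PZH + AOM/DSS. Counts of the 10 genes that passed are given with and without these libraries, and the part of squamous tissue in them was not tested.

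In Control colon the FPKM levels, which are per transcript length, fell in the order Pyy, Insl5, Chgb, Chga, Gcg, Sst, Tph1, Neurod1, Cck and Nts, with means from 174 ± 51.9 (SD, n = 5) for Pyy to 0.252 ± 0.229 for Nts. Neighbours in this order overlapped between mice, except that the lowest Tph1 value of 3.08 FPKM was above the highest Neurod1 value of 1.27 FPKM. The spread between Control mice was widest for Nts, with a coefficient of variation of 90.9%, followed by 57.6% for Insl5. Neurod1, Cck and Nts rest on few fragments, about 35.4 to 66.5 per Control mouse for Neurod1, 4.99 to 17.8 for Cck and 2.995 to 13.98 for Nts.

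**Figure D1:**
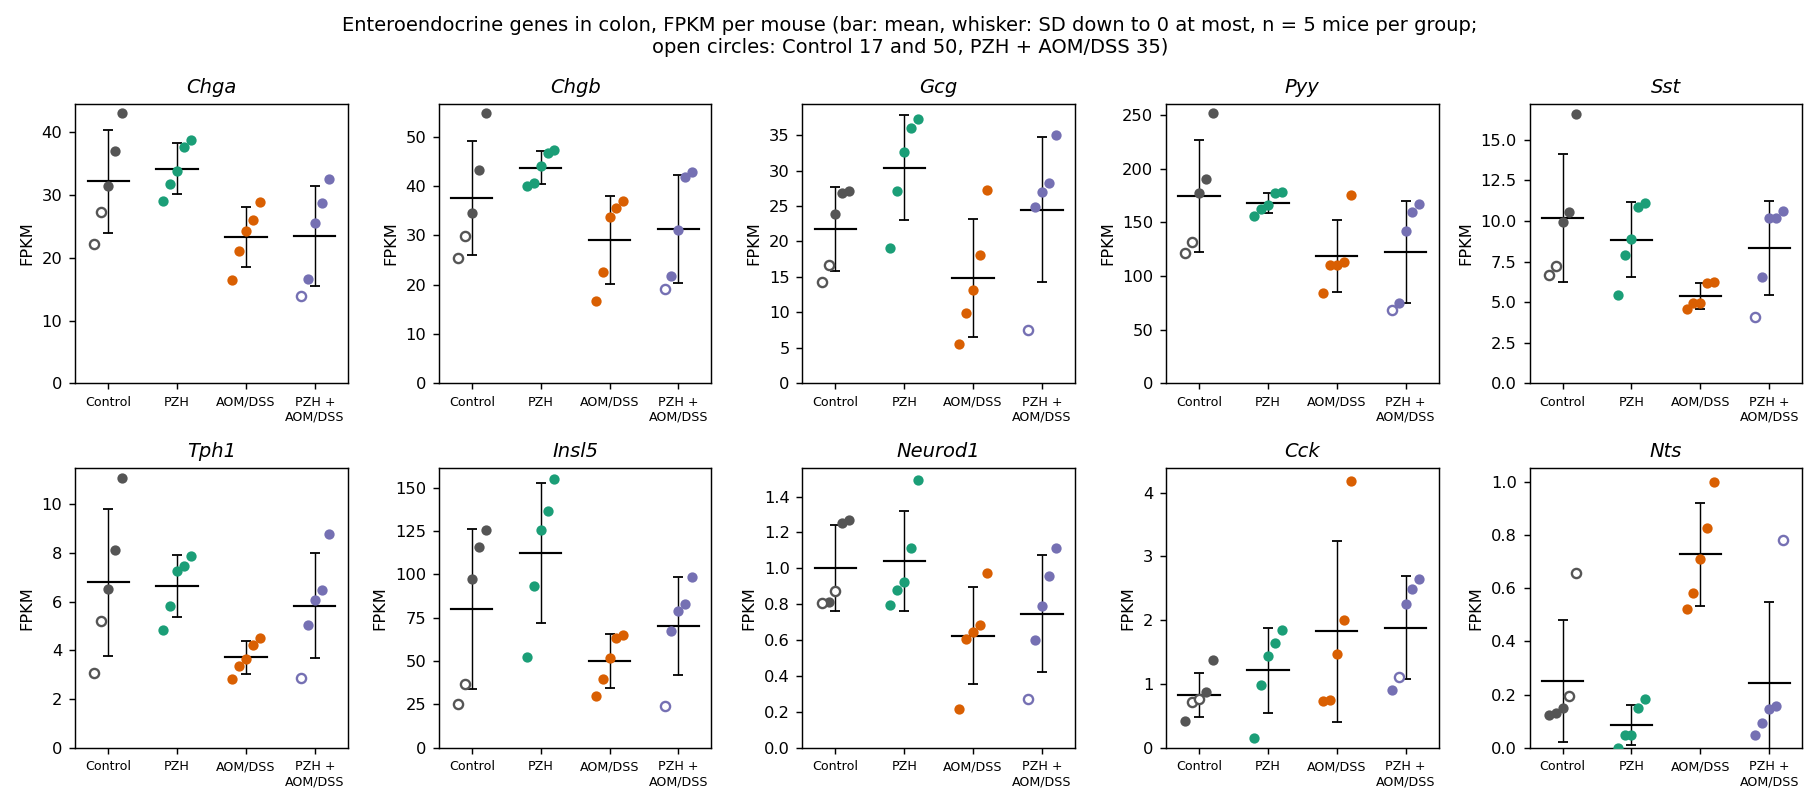
FPKM of the 10 enteroendocrine genes in each of the 20 mice, by group, on linear axes from 0, with the mean and SD of 5 mice as bar and whisker (whiskers end at 0) and open circles for Control 17 and 50 and PZH + AOM/DSS 35. The 5 AOM/DSS mice lie below all Control mice for Sst, between 4.57 and 6.26 FPKM, and open circles are low in their group for most genes except Cck and Nts.

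The first question was what the AOM/DSS disease model did to these genes. The somatostatin gene Sst fell and Nts rose, so that 2 of the 10 genes passed an adjusted P under 0.05 in limma, against 23.6% of the 15812 genes tested. The other 8 did not pass. Nts reached the low-value filter (0.5 FPKM in at least 5 mice) through the AOM/DSS mice, where it was high, and Control 50. Its call is therefore given as a description, and Sst is the call left. At an unadjusted P under 0.05 there were 6 of the 10, against 36% of all genes. Of all 10, 8 had lower values in AOM/DSS, as did 40% of all genes tested, and their median log2 fold change was -0.45 where that of all genes was 0.09. With FPKM rescaled by median-of-ratios size factors, the calls over all genes moved from 2596 higher and 1143 lower to 1936 and 1587, while the same 8 genes stayed lower and Sst and Nts stayed past the threshold. The log2 fold changes given here are of FPKM + 1, with the standard error, and understate changes of low genes such as Neurod1, Cck and Nts.

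Sst encodes somatostatin, the inhibitory peptide of D cells, which restrains release of other gut hormones. It stood at 6.65, 10.5, 16.6, 9.93 and 7.22 FPKM in Control mice 17, 37, 41, 48 and 50. In AOM/DSS mice 23, 30, 33, 44 and 52 it stood at 6.17, 4.96, 6.26, 4.94 and 4.57 FPKM. Every AOM/DSS mouse was below every Control mouse, a separation that 18.4% of all genes tested also had in either direction. The log2 fold change was -0.75 ± 0.21 (adjusted P = 0.0277, limma; exact permutation P = 0.00794, two-sided, the smallest that 5 against 5 mice can give). The mean fell from 10.2 ± 3.96 to 5.38 ± 0.779 FPKM (SD, n = 5). The adjusted P rose above the threshold, to between 0.053 and 0.0665 in limma, when Control 37, Control 48 or AOM/DSS 30, 44 or 52 was left out, while the log2 fold change stayed between -0.71 and -0.75 in those fits.

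Chga and Chgb encode chromogranin A and B, the acidic proteins that fill the granules and mark nearly all enteroendocrine cells. Chga was at 27.3, 31.3, 43.1, 37.1 and 22.2 FPKM in the Control mice in the order above and at 24.3, 25.96, 28.8, 16.4 and 21.1 FPKM in the AOM/DSS mice. The groups overlapped, with the lowest Control mouse, 50, below 3 of the AOM/DSS mice. The log2 fold change of Chga was -0.44 ± 0.19 (adjusted P = 0.131, limma). Chgb was at 29.9, 34.6, 54.8, 43.2 and 25.5 FPKM in Control and at 33.8, 35.5, 37.03, 16.7 and 22.6 FPKM in AOM/DSS. Its log2 fold change was -0.37 ± 0.26 (adjusted P = 0.341, limma), with a 95% interval from -0.93 to 0.20 that also holds a rise.

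The L-cell genes Pyy, Gcg and Insl5 encode peptide YY, which slows transit and curbs appetite, the glucagon-like peptides, and insulin-like peptide 5, a peptide largely of the distal gut. Pyy was at 122, 251, 190.2, 177 and 132 FPKM in Control and at 175, 110.2, 110.5, 113 and 84.3 FPKM in AOM/DSS. In AOM/DSS, 4 mice were below every Control mouse and the other one, mouse 23, was within the Control range. The log2 fold change of Pyy was -0.55 ± 0.23 (adjusted P = 0.109, limma), and without AOM/DSS 23 it was -0.70 (adjusted P = 0.0454).

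Gcg was at 14.3, 26.8, 27.2, 23.8 and 16.6 FPKM in Control and at 27.2, 9.87, 18.1, 5.61 and 13.1 FPKM in AOM/DSS. The AOM/DSS mice spread widely around both ends of the Control range, and the log2 fold change was -0.65 ± 0.35 (adjusted P = 0.212, limma). Insl5 was at 36.9, 116, 125, 97.2 and 25.1 FPKM in Control and at 63.6, 29.7, 65.3, 39.6 and 51.9 FPKM in AOM/DSS. Its Control values fell into a high set of 3 mice and a low set formed by mice 17 and 50, the libraries with squamous keratin. Over all 10 mice the log2 fold change of Insl5 was -0.47 ± 0.44 (adjusted P = 0.494, limma).

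Tph1 encodes tryptophan hydroxylase 1, the rate-limiting enzyme of serotonin synthesis in the gut. It was at 5.19, 6.53, 11.1, 8.12 and 3.08 FPKM in Control and at 4.23, 3.63, 4.52, 2.83 and 3.35 FPKM in AOM/DSS. Of the Control mice, 4 were above every AOM/DSS mouse and the other one, mouse 50, was near the bottom of the AOM/DSS range. The log2 fold change was -0.65 ± 0.26 (adjusted P = 0.097, limma), and it was -0.86 with an adjusted P of 0.017 without Control 50. Neurod1, the factor that acts after Neurog3 in the lineage, was at 0.806 to 1.27 FPKM in Control (median 0.873) and 0.217 to 0.972 FPKM in AOM/DSS (median 0.645). In AOM/DSS, 4 mice were below all Control mice, and the log2 fold change was -0.31 ± 0.14 (adjusted P = 0.134, limma).

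Nts and Cck, the genes of neurotensin and cholecystokinin, had the opposite sign. Nts was at 0.196, 0.132, 0.124, 0.15 and 0.658 FPKM in Control and at 0.826, 0.521, 0.709, 0.999 and 0.58 FPKM in AOM/DSS. The AOM/DSS mice were above all Control mice except mouse 50, which lay among them. The log2 fold change was 0.47 ± 0.13 (adjusted P = 0.0238, limma; exact permutation P = 0.0238). These values come from about 2.995 to 13.98 fragments per Control mouse and 11.02 to 20.9 per AOM/DSS mouse, and Nts passed the low-value filter through the 5 AOM/DSS mice and Control 50, so that its call is given as a description. The call was lost without Control 41 or 48 or without AOM/DSS 23 or 44, with adjusted P from 0.0534 to 0.0631 in limma and log2 fold changes from 0.42 to 0.45. Cck was at 0.42 to 1.37 FPKM in Control and 0.736 to 4.18 FPKM in AOM/DSS, with overlapping groups and a log2 fold change of 0.52 ± 0.28 (adjusted P = 0.217, limma).

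The 2 Control libraries with squamous keratin moved these counts. Mice 17 and 50 were the lowest Control mice for Chga, Chgb, Gcg, Pyy, Sst, Tph1 and Insl5. Without both, a choice made after their values were seen, 6 of the 10 genes passed in limma, against 17.8% of all genes tested in that fit, which asked for the filter level in at least 4 mice in place of 5. Nts is among the 6, and in that fit it reached the level only in AOM/DSS mice, where it was high, so that its passing carries no weight. For the other 5 that passed, the 2 mice left out were the lowest Control mice, so their removal raised the Control mean. The passing of these 5 is therefore given as a description and adds no support for a fall. Again 6 genes passed with the level asked in 5 mice. Sst (-1.04, adjusted P = 0.00777), Tph1 (-1.01, adjusted P = 0.0101), Insl5 (-1.21, adjusted P = 0.0145), Pyy (-0.82, adjusted P = 0.0371) and Chga (-0.66, adjusted P = 0.0424) were lower, all as log2 fold changes, and Nts had 0.60 (adjusted P = 0.0103). Chgb, Gcg, Neurod1 and Cck did not pass there, with log2 fold changes of -0.62, -0.94, -0.39 and 0.49. The remaining Control group has 3 mice, and the fit shares 1 estimate of the spread with the 5 AOM/DSS mice.

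**Figure D2:**
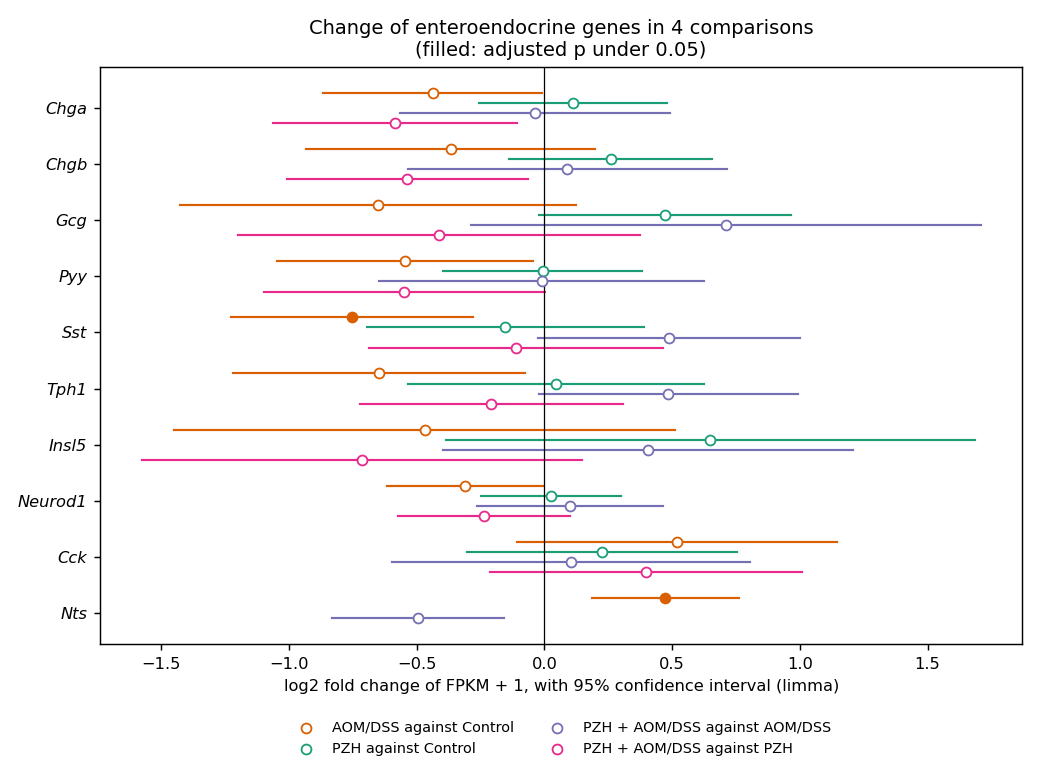
Log2 fold change of FPKM + 1 with its 95% interval (limma) for each gene in 4 comparisons, with filled circles where the adjusted P was under 0.05. The only filled circles are Sst at -0.75 and Nts at 0.47 in AOM/DSS against Control, and Nts was below the low-value filter in PZH against Control and in PZH + AOM/DSS against PZH.

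The next question was whether PZH alone changed the genes in healthy colon. None of the 9 genes tested passed in PZH against Control, where limma called 0.00645% of 15506 genes, and none had an unadjusted P under 0.05, against 8.84% of all genes. Pyy was at 156, 178, 162, 177 and 166 FPKM in PZH mice 8, 14, 27, 46 and 53, inside the Control range, with a log2 fold change of -0.01 (95% interval from -0.40 to 0.38). Chga was at 31.7, 38.8, 33.8, 29.0 and 37.7 FPKM and Chgb at 39.96, 46.7, 44.04, 40.7 and 47.4 FPKM. Both granins had a narrower spread in PZH mice than in Control, with coefficients of variation of 12.0% and 7.69% against 25.4% and 30.9%, and this difference in spread was not tested.

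Gcg was at 19.1, 32.6, 27.05, 37.2 and 35.95 FPKM in the PZH mice, 3 of them above every Control mouse. Its log2 fold change of 0.47 ± 0.22 (adjusted P = 0.573, limma) dropped to 0.19 without Control 17 and 50. Insl5, at 52.5, 155, 93.1, 136 and 125 FPKM, had a log2 fold change of 0.65 ± 0.47 over all mice (adjusted P = 0.693, limma) and -0.09 without those 2 mice. Sst was at 5.46, 10.9, 7.93, 8.88 and 11.1 FPKM and Tph1 at 4.83, 7.87, 7.45, 5.82 and 7.26 FPKM, and both overlapped Control. Nts did not reach the low-value filter in this comparison, at 0.0487, 0.148, 0.0492, 0 and 0.183 FPKM in PZH mice, where 1 fragment is worth about 0.05 FPKM.

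The main treatment question was whether PZH changed the genes in the disease model. Against AOM/DSS, none of the 10 genes passed in PZH + AOM/DSS, and limma called 0.00629% of 15888 genes. Of the 10, 1 had an unadjusted P under 0.05, against 11.7% of all genes. This was Nts, with a log2 fold change of -0.49 ± 0.15 (adjusted P = 0.356, limma). In PZH + AOM/DSS mice 2, 13, 15, 35 and 36, Nts was at 0.155, 0.092, 0.147, 0.78 and 0.0484 FPKM. Mouse 35 lay among the AOM/DSS mice and the other 4 were below all of them.

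Sst, Tph1 and Insl5 had a like split of the mice. Sst was at 10.2, 10.6, 10.2, 4.07 and 6.56 FPKM, with 4 mice above every AOM/DSS mouse and mouse 35 below them all. Its log2 fold change against AOM/DSS was 0.49 ± 0.23 (adjusted P = 0.444, limma). Tph1 was at 5.04, 8.78, 6.47, 2.85 and 6.07 FPKM, again with 4 mice above every AOM/DSS mouse, and its log2 fold change was 0.49 ± 0.23 (adjusted P = 0.442, limma). Insl5 was at 79.0, 82.8, 67.3, 24.2 and 98.6 FPKM, with the same 4 mice above every AOM/DSS mouse and a log2 fold change of 0.41 ± 0.36 (adjusted P = 0.678, limma).

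Gcg was at 34.998, 26.9, 24.8, 7.48 and 28.2 FPKM in these mice, with a log2 fold change of 0.71 ± 0.45 against AOM/DSS (adjusted P = 0.552, limma). Chga, Chgb and Pyy were spread over both low and high values. Chga was at 28.7, 32.6, 16.6, 13.9 and 25.5 FPKM, Chgb at 42.8, 41.9, 21.8, 19.1 and 31.1 FPKM, and Pyy at 159.6, 167, 74.7, 68.5 and 142 FPKM. Mice 15 and 35 formed the low end for all 3 genes. Their log2 fold changes were -0.04, 0.09 and -0.01, with 95% intervals from -0.56 to 0.49, from -0.53 to 0.71 and from -0.65 to 0.63, which leave room for a change in either direction.

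PZH + AOM/DSS mouse 35 was among the 3 lowest of all 20 mice for 8 of the 10 genes, and no other mouse was so for more than 6. The 9 colonocyte markers summed to 1088 FPKM in mouse 35, 1246 to 2828 in AOM/DSS and 3159 to 4874 in the other mice of its group. The 8 leukocyte markers summed to 755, 395 to 889 and 301 to 444 FPKM in the same order. Leaving out mouse 35 thus removes the mouse with the lowest colonocyte and highest leukocyte sum of its group. Without mouse 35, 2 of the 10 genes passed against AOM/DSS in limma, where 5.17% of all genes tested passed. Sst was higher by 0.69 on the log2 scale (adjusted P = 0.0423, limma). Mouse 35 was the lowest of its group for Sst, so its removal raised the group mean and this call is given as a description. Nts was the other gene that passed, with a log2 fold change of -0.63 (adjusted P = 0.0111, limma). It then reached the low-value filter only in the AOM/DSS mice, where it was high, so that its passing carries no weight. Tph1 stood at 0.68 (adjusted P = 0.0546), Insl5 at 0.75 (adjusted P = 0.0964) and Gcg at 1.07 (adjusted P = 0.122). Each mouse was left out in turn, and mouse 35 was the only one whose removal brought a gene of the 10 past the threshold in this comparison. In the interaction without mouse 35, 0 of 10 genes passed, where 2.83% of all genes tested did.

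Against the other groups, PZH + AOM/DSS had no gene past the threshold either. Against Control, 0 of 9 genes passed where limma called 2.42% of 15616 genes, and 1 had an unadjusted P under 0.05, against 20.9% of all genes. This was Cck, with a log2 fold change of 0.63 ± 0.22 (adjusted P = 0.137), at 0.905 to 2.65 FPKM. Against PZH, 0 of 9 passed where 2.42% of 15636 genes did, and Chga at -0.59 ± 0.22 (adjusted P = 0.159) and Chgb at -0.54 ± 0.21 (adjusted P = 0.186) had an unadjusted P under 0.05 in limma, as did 20.9% of all genes. The interaction, which asks whether the change with AOM/DSS differed with PZH, called 0 of 10 genes and 0.0118% of 16936 genes, and none of the 10 had an unadjusted P under 0.05, against 10.3% of all genes. The largest interaction among the 10 was that of Sst, 0.64 ± 0.35 (adjusted P = 0.542, limma). These comparisons share groups of mice and are not independent of each other.

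Genes that process prohormones and fill the granules also fell in AOM/DSS. Of 20 such genes 19 were tested, and 9 fell and 0 rose against Control, where 7.23% of all genes tested fell and 16.4% rose. Cpe, carboxypeptidase E, which trims peptide hormones after cleavage, had a log2 fold change of -1.07 ± 0.14 (adjusted P = 0.000531, limma). It was at 42.0 to 61.9 FPKM in Control and 20.1 to 27.7 FPKM in AOM/DSS, without overlap. Rab3b, a small GTPase of vesicle release, had -0.93 ± 0.15 (adjusted P = 0.00194), the calcium sensor Scgn -0.80 ± 0.21 (adjusted P = 0.0198) and Pcsk1n, the inhibitor of proprotein convertase 1, -0.76 ± 0.18 (adjusted P = 0.0125), all in limma. Pcsk1, the convertase itself, was at 0.07 ± 0.13 (adjusted P = 0.743, limma). Enteric neurons also express many of these genes, and 5 of 12 neuron markers tested fell (6 without Control 17 and 50) and 1, Ret, rose in AOM/DSS. The 14 neuron markers summed to 34.3 to 61.0 FPKM in Control and 25.3 to 36.9 FPKM in AOM/DSS, and their part in the granule genes was not tested. Without Control 17 and 50, 5 of the 19 granule genes fell and 0 rose.

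**Figure D3:**
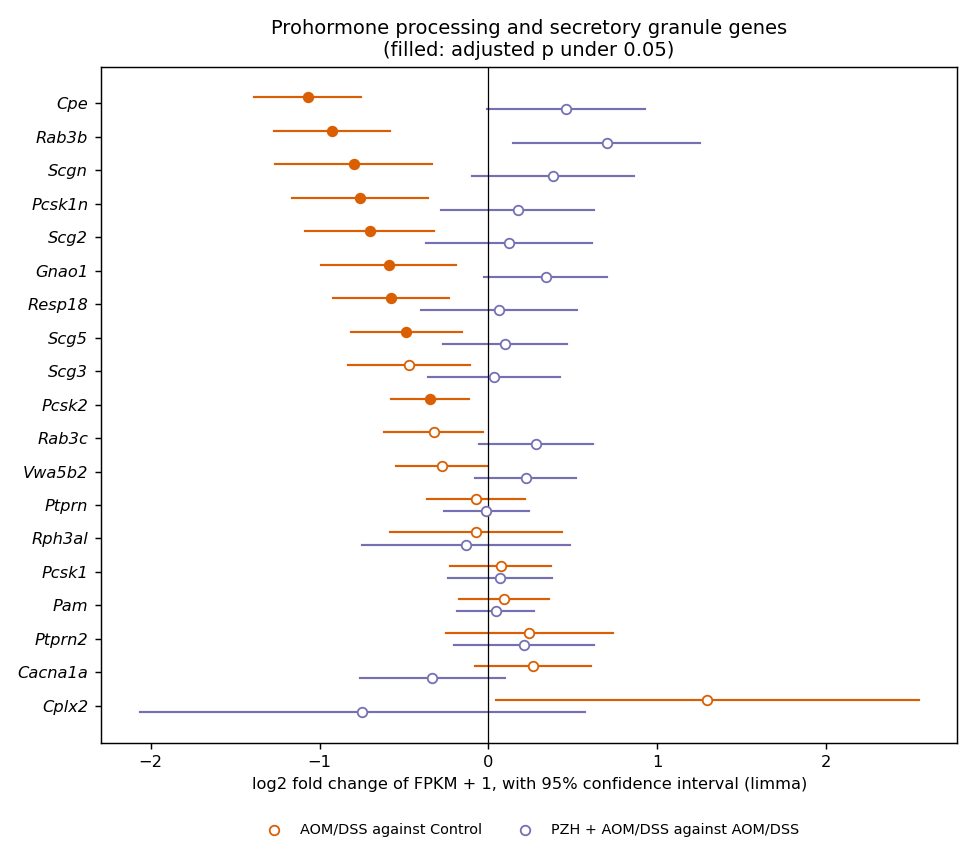
Log2 fold change of FPKM + 1 with its 95% interval (limma) for 19 prohormone processing and granule genes in AOM/DSS against Control and, where tested, in PZH + AOM/DSS against AOM/DSS, with filled circles for an adjusted P under 0.05. In AOM/DSS 9 genes are filled, all to the left of 0, with Cpe at -1.07 the farthest, and none is filled for PZH + AOM/DSS.

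None of 18 granule genes passed in PZH + AOM/DSS against AOM/DSS. Cpe was at 38.1, 41.9, 35.8, 17.9 and 35.5 FPKM there, with mouse 35 below all AOM/DSS mice and the other 4 above them all. Its log2 fold change was 0.46 ± 0.21 (adjusted P = 0.431, limma), and 0.67 (adjusted P = 0.0154) without mouse 35. Rab3b had 0.70 ± 0.25 (adjusted P = 0.362, limma), and 0.93 (adjusted P = 0.0152) without that mouse. The fits without mouse 35 left out a mouse seen to be low for Cpe, so they are given as a description.

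Genes that handle serotonin around Tph1 moved in both directions. Of the 8 tested, 3 fell and 1 rose in AOM/DSS against Control, with all mice and also without Control 17 and 50, where 7.23% of all genes fell and 16.4% rose over all mice. Ddc, the decarboxylase that finishes serotonin synthesis, was at 53.8, 76.7, 55.1, 50.3 and 54.5 FPKM in Control and at 29.7, 25.9, 30.1, 30.2 and 26.04 FPKM in AOM/DSS. Its log2 fold change was -0.99 ± 0.12 (adjusted P = 0.000274, limma), and it was also lower in PZH + AOM/DSS against Control (-1.16, adjusted P = 0.0142) and against PZH (-0.96, adjusted P = 0.0218). Without Control 17 and 50 the call against Control was lost, at -1.22 with an adjusted P of 0.0741 in limma. Maoa and Maob, the monoamine oxidases that break serotonin down, had log2 fold changes of -1.18 ± 0.18 (adjusted P = 0.00118) and -1.68 ± 0.22 (adjusted P = 0.000512) in AOM/DSS. Both Ddc and Maoa are also strongly expressed by absorptive colonocytes, of whose 9 markers 5 fell and 0 rose, with summed levels of 3109 to 4211 FPKM in Control and 1246 to 2828 FPKM in AOM/DSS.

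Slc18a1 encodes the vesicular transporter that loads serotonin into granules of enterochromaffin cells, and it rose in AOM/DSS. It was at 1.27, 1.64, 1.204, 1.16 and 1.51 FPKM in Control and at 10.6, 8.80, 7.02, 16.0 and 14.5 FPKM in AOM/DSS. The groups did not overlap, and the log2 fold change was 2.34 ± 0.20 (adjusted P = 3.06e-05, limma). In the PZH + AOM/DSS mice it was at 2.02, 1.496, 3.38, 14.4 and 3.50 FPKM, with mouse 35 within the AOM/DSS range and the other 4 below it. The log2 fold change against AOM/DSS was -1.34 ± 0.44 (adjusted P = 0.356, limma), and -1.77 (adjusted P = 0.00881) without mouse 35. Mouse 35 was the highest of its group, so the fit without it is given as a description. Mast cells, which also hold serotonin in mice, rose in their markers in AOM/DSS, with 9 of 10 tested genes higher and none lower, or 6 of 10 without Control 17 and 50, where 16.4% of all genes rose over all mice. Of the 12 markers only 4 reached the low-value filter in PZH against Control. The additional markers were tested here through the AOM/DSS mice, where they were high, so this count carries no weight and is a description. Mcpt1, a mast cell protease, went from 0.622 to 1.03 FPKM in Control to 20.9 to 157 FPKM in AOM/DSS, and the 12 markers summed to 11.9 to 19.4 FPKM in Control, 23.02 to 24.5 in PZH, 68.7 to 300.1 in AOM/DSS and 44.1 to 305 in PZH + AOM/DSS. Whether they bear on Slc18a1 or Tph1 was not tested.

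**Figure D4:**
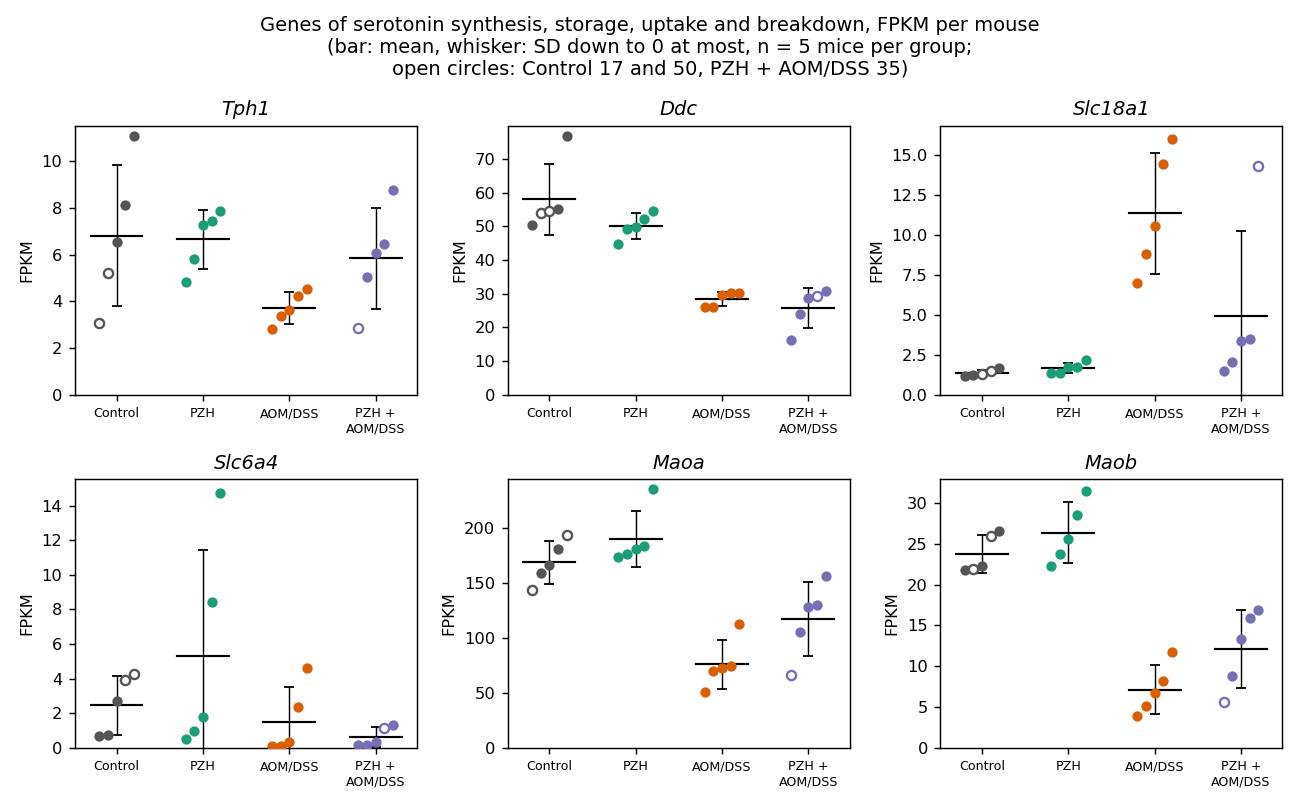
FPKM of 6 genes of serotonin synthesis (Tph1, Ddc), storage (Slc18a1), uptake (Slc6a4) and breakdown (Maoa, Maob) in each of the 20 mice, by group, on linear axes from 0, with mean and SD of 5 mice and open circles for Control 17 and 50 and PZH + AOM/DSS 35. Slc18a1 lies at 7.02 to 16.0 FPKM in AOM/DSS against 1.16 to 1.64 in Control, while Ddc, Maoa and Maob lie lower in AOM/DSS.

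Among the transcription factors of the lineage, Nkx2-2, needed for several enteroendocrine kinds, fell in AOM/DSS against Control (-0.73 ± 0.22, adjusted P = 0.0362, limma). Neurog3, which starts the lineage, did not reach the filter in that comparison. It was at 0.235, 2.03, 1.23, 1.92 and 0.363 FPKM in Control and at 0.737, 0.27, 0.298, 0.209 and 0.322 FPKM in AOM/DSS. The 2 low Control values were those of mice 17 and 50, and the exact permutation P was 0.0873. The PZH + AOM/DSS mice had 1.89, 1.77, 1.45, 0.131 and 1.60 FPKM of it, with 4 mice above every AOM/DSS mouse and mouse 35 below them (exact permutation P = 0.0476 over all 10 mice, not adjusted for the genes tested).

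Among sensors that enteroendocrine cells use for nutrients and microbial products, 2 of 8 tested fell and 1 rose in AOM/DSS against Control, where 7.23% of all genes fell and 16.4% rose. Slc5a1, the sodium-glucose transporter, had a log2 fold change of -0.55 ± 0.11 (adjusted P = 0.00484), Olfr78, a receptor of short-chain fatty acids, -0.54 ± 0.16 (adjusted P = 0.0324) and the irritant channel gene Trpa1 0.60 ± 0.13 (adjusted P = 0.00663), all in limma. Without Control 17 and 50, Olfr78 did not pass (-0.35, adjusted P = 0.137, limma) while the other 2 did. None of the 7 tested receptors of the member peptides and none of the 4 tested other gut hormone genes passed over all mice. Without Control 17 and 50, 1 of 6 hormone genes passed, the amylin gene Iapp (0.81, adjusted P = 0.0355, limma), which reached the filter level only in AOM/DSS mice, where it was high. In PZH against Control no gene of these 6 lists passed, and in PZH + AOM/DSS against AOM/DSS none did either.

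Marker genes of several cell types differed between AOM/DSS and Control, while the shares of these cells were not measured. All 8 smooth muscle markers fell over all mice and 4 of 8 fell without Control 17 and 50, where 7.23% of all genes fell over all mice. Their summed levels were 2305 to 5304 FPKM in Control and 1024 to 1794 FPKM in AOM/DSS. With and without these 2 mice, 3 of 12 epithelium markers fell while none rose. Of 8 leukocyte markers 4 rose and none fell, again both ways. Of 4 distal position genes 1 fell, Hoxb13 (-0.60, adjusted P = 0.00157, limma). None of 6 squamous genes passed over all mice. All 6 were higher in AOM/DSS without Control 17 and 50, where 1954 of 15896 genes tested were. These 2 mice were left out for their squamous keratin, so that choice shaped the result and it carries no weight. Of the pancreas markers, which would show islet tissue as another source of Sst, Gcg and Pyy, 1 of 9 was tested and it did not pass. Enteric neurons can also express Sst, Cck, Nts, Chga and Chgb, and of 12 neuron markers tested 5 fell and 1 rose. How much these differences bear on the 10 genes was not tested.

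The 10 genes were then compared with each other across mice. Group means were subtracted from log2(FPKM + 1), so that the correlations describe mice of the same group, and all 45 pairs were tested by permutation within groups with Benjamini-Hochberg adjustment. All 28 pairs among the 8 genes other than Cck and Nts were positive, with Pearson's r from 0.53 to 0.96 (median 0.68) and Spearman's rho from 0.45 to 0.94, and 25 had an adjusted permutation P under 0.05 for r. The closest pair was Chga and Chgb, with r of 0.96 and rho of 0.94 (adjusted permutation P = 0.00045 for both, the smallest that the permutations can give). Leaving out the 2 mice farthest from the median of Chga left r at 0.95. The same was done for each pair with the gene named first in the opening list, and the 28 values of r then ran from 0.34 to 0.95. All mice of these pairs share the library, its depth and the make-up of the tissue piece. The share of all gene pairs with such values was not computed. Single genes outside the list reached r as high, such as Pdia5 with Insl5 (0.92) and Zg16 with Pyy (0.88). The block is therefore not shown to be particular to these genes.

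Sst went with Tph1 (r = 0.82, rho = 0.74, adjusted permutation P = 0.00292 for r, and 0.69 without the 2 farthest mice) and with Insl5 (r = 0.81, rho = 0.62, adjusted permutation P = 0.00292, and 0.72 without them). Gcg went with Insl5, its partner in L cells (r = 0.79, rho = 0.79, adjusted permutation P = 0.0021, and 0.79 without them). Nts was negative with all 9 others, with r from -0.69 to -0.15, of which 5 had an adjusted permutation P under 0.05. Without the 2 mice farthest from the median of the other gene, not of Nts, the 9 values ran from -0.36 to -0.10. The mice left out can differ between pairs. The value for Cck moved from -0.15 to -0.30, while the rest weakened. Cck was positive with 8 of 9, with r up to 0.57 for Gcg.

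**Figure D5:**
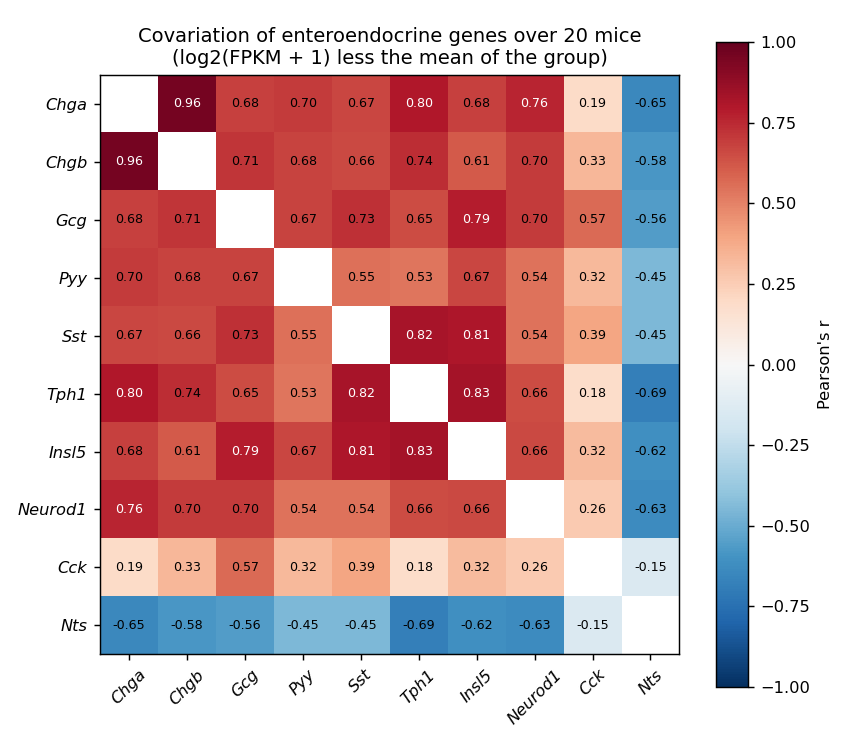
Pearson's r of each pair of the 10 genes over 20 mice, from log2(FPKM + 1) less the mean of the mouse's group, on a colour scale from -1 to 1. The 8 genes other than Cck and Nts form a block of positive values from 0.53 to 0.96, with Chga and Chgb highest, and the row of Nts is negative throughout.

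Outside the list, the genes whose pattern was most like each of these, among 14139 genes with a mean of at least 1 FPKM, were as follows. For Chga and Chgb they were each other, followed by Bcas1 (r = 0.89 and 0.90). For Pyy it was Zg16, a goblet cell protein gene (r = 0.88), for Insl5 it was Pdia5, of protein folding (r = 0.92), and for Gcg it was Ugt1a7c (r = 0.90), with Agr2, a goblet cell folding gene, next (r = 0.88). For Sst it was Ppa2 (r = 0.90) and for Tph1 Tmem263 (r = 0.89), with Guca2a, the guanylin gene, also near (r = 0.86). Neurod1 was most like Dhrs11 (r = 0.84), Cck most like Slc35c2 (r = 0.84) and Nts most like Thbs2 (r = 0.90). Each r describes 20 mice within their groups and was chosen as the highest of all genes, so it carries no test.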

How the data were processed

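Colon RNA-seq of 20 mice (4 groups of 5) was used. The authors deposited FPKM per transcript for each mouse, made per the study's methods from rRNA-depleted RNA with FastQC 0.11.5, NGSQC 2.3.3, HISAT2 2.1.0 on mm10 and StringTie 1.3.3b. Only these FPKM were used. FPKM of 96032 Ensembl transcripts were summed to 32991 genes with GENCODE M21. A further 150 Ensembl and 22252 assembled transcripts, which held 12.1 to 14.8% of all FPKM, were left out, so fragments assigned to them are missing from gene sums. Depth was read from the step of FPKM times length. Depth in fragments is an estimate, since 43.8 to 49.6% of low values were whole steps within 0.02, and limits on low genes cover counting error only.

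limma 3.58.1 (R 4.3.3, trend) compared log2(FPKM + 1) over the 10 mice of 2 groups, or 20 for the interaction, for genes with at least 0.5 FPKM in at least 5 mice (4 in the fits without Control 17 and 50, where not stated otherwise), with Benjamini-Hochberg adjustment over all genes tested and a threshold of 0.05. Exact permutation tests were two-sided over 252 splits. In a test on simulated data for AOM/DSS against Control, 88.2% of genes changed by 1 on the log2 scale were found among 15182 genes, and all of those changed by 2. The simulated spread followed a trend smoothed over genes in Control mice. These shares therefore need not hold for members with a wide spread between mice, such as Insl5.

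The members and lists were chosen with earlier results of these data known. All 10 members are named. List genes are named where the adjusted P was under 0.05 in AOM/DSS against Control (at most 4 with the largest change for each direction and list) or where their values touch a member. The 3 most-like genes were found by Pearson's r. Krt5, Neurog3 and the pairs described were chosen after their values were seen. Alternatives are in the closing section. Sequences are from RefSeq. Each library is 1 mouse, by its number. The labels' protocol text also names another tissue, while the colon markers Vil1 and Hoxb13 were high in every mouse and Krt8 varied widely. A result for 1 listed gene is not reported here.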

Additional observations from a re-analysis of the deposited data

Results flagged for a closer look

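Values are listed here where 1 mouse of a group of 5 lay far from the other 4, by Dixon's ratio above 0.71. By chance this happens in about 1 of 20 groups, which is 6.8 of the 136 group values examined, and 20 were found. Among the 10 enteroendocrine genes there were 2 of 40, the number that chance gives. Both were of Nts, at 0.658 FPKM in Control 50 and 0.78 FPKM in PZH + AOM/DSS 35, each high in its group.

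PZH + AOM/DSS 35 held 6 of the 20. Beside Nts these were Cpe, low at 17.9 FPKM, Slc18a1, high at 14.4 FPKM, Neurog3, low at 0.131 FPKM, Krt5, high at 3.21 FPKM, and Ret, high at 11.7 FPKM. Another 5 were of serotonin, granule or sensor genes. Slc5a1 was high at 56.9 FPKM in PZH 8, Olfr78 low at 0.814 FPKM in AOM/DSS 52, Rab3b high at 2.00 FPKM in AOM/DSS 33, Maoa high at 235 FPKM in PZH 46 and Ddc high at 76.7 FPKM in Control 37. Neurog3 was high at 0.737 FPKM in AOM/DSS 23.

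Of the marker genes, Krt5 was high at 0.138 FPKM in PZH 8 and Hoxb13 low at 58.7 FPKM in PZH + AOM/DSS 15. Krt8, a keratin of simple epithelium, was high at 3071 FPKM in Control 48, 2795 FPKM in PZH 53 and 2317 FPKM in PZH + AOM/DSS 13, and it ranged down to 0.0706 FPKM in other mice. Iapp was high at 0.184 FPKM in Control 41 and at 0.424 FPKM in PZH 8. No interaction of PZH and AOM/DSS passed among the 10 genes.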

How the results depend on the processing

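In AOM/DSS against Control, 2 of the 10 genes passed, Sst and Nts, with Nts given as a description because of the filter. The count was also 2 with a pseudocount of 0.1, without a filter, with median-of-ratios scaling, with the highest transcript only and with all 20 mice in 1 model. It was 1 with a filter of 1 FPKM, which removed Nts, and 0 by an unadjusted P under 0.05 in limma with a fold over 2, against 7.71% of all genes. By an unadjusted exact permutation P under 0.05, an alternative added after the data were seen, it was 4, and by the same test it was 5 when the mean of the epithelium markers was subtracted and 5 again without Krt8 among these markers, also added. The exact test was not run over all genes, so its counts here and below have no share beside them and are a description. In limma an unadjusted P under 0.05 held for 36% of all genes in this comparison. Without 1 mouse it ran from 0 to 3, and without both Control mice with Krt5, also added later, it was 6 with the filter level in 4 mice and 6 with it in 5 mice. In PZH + AOM/DSS against AOM/DSS the count of 0 became 2 without mouse 35, and was 0 without any other mouse. By the exact test it was 1 there with nothing subtracted and 0 after subtraction. In PZH + AOM/DSS against Control the exact test gave 1 with nothing subtracted (Cck), 4 other genes after subtraction and 1 without Krt8 among the markers, and against PZH it gave 1 (Chga) both with nothing subtracted and after subtraction. The cause was not tested. No called gene changed sign under any of these settings. PZH against Control and the interaction kept 0 in each setting.

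No paired analysis was possible because the groups share no mouse numbers. Counts over all genes moved by over 1.5 times in other comparisons than AOM/DSS against Control. In PZH + AOM/DSS against AOM/DSS 1 gene became 808 without mouse 35, 89 with all 20 mice in 1 model and 0 to 3 in the rest. In PZH + AOM/DSS against Control 378 became 98 without a filter, 177 with the highest transcript, 1503 with all 20 mice, 30 without the Control mice with Krt5 (29 with the level in 5 mice) and 78 to 495 without 1 mouse, lowest without PZH + AOM/DSS 15, and against PZH 378 became 90, 155 and 1002 under the first 3 of these and 54 to 423 without 1 mouse, lowest without PZH 27. The shares of all genes called in both, 2.42%, therefore depend on single mice. The interaction went from 2 to 476 without mouse 35 and 0 to 2 in the rest, and PZH against Control from 1 to between 0 and 2. Most 95% intervals of the 10 genes span changes in both directions, and Cck and Nts rest on at most 49.6 fragments a mouse.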
